A study of Mus musculus with 33 samples.

Results

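The synaptotagmins described here are the 10 genes Syt1 to Syt7 and Syt9 to Syt11, taken by their gene symbols from the count tables of female and male frontal cortex. Each table holds 23366 genes, and every member was found once in both. All 10 passed the filter on low counts in either table (a sum of at least 5 over the libraries of the table in CPM, counts scaled to the library total), which left 15158 genes in females and 15293 in males.

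Synaptotagmins are membrane proteins of vesicles, most with an N-terminal membrane anchor and paired C2 domains facing the cytosol. In the members that bind calcium, calcium entry drives the C2 domains into phospholipid and onto the SNARE complex, which couples an action potential to the fusion of a vesicle. The members differ in calcium affinity and speed, some do not bind calcium through their first C2 domain at all, and neuron types of the forebrain use different members for fast release, slow release and the secretion of peptides.

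RNA-Seq was performed on frontal cortex of C57BL/6 offspring at about 1 month of age, whose dams were exposed by whole-body inhalation during pregnancy and then together with their pups during lactation. The air groups breathed filtered air, the nicotine groups aerosol from tobacco-flavored blu e-cigarettes with 13 to 16 mg/mL nicotine, and the no nicotine groups aerosol from cartridges without nicotine. The analysis included 6 air, 5 nicotine and 5 no nicotine libraries of females and 6 air, 6 nicotine and 5 no nicotine libraries labelled male, each from 1 pup per litter. Each sex had a sequencing run of its own, so that sex and run cannot be told apart, and levels were compared only within a sex.

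Total counts ran from 19150562 to 27513174 in females and from 17845672 to 24787955 in males, which put between 61 counts (Syt10) and 53451 counts (Syt1) behind each value below. In the 16 female libraries Xist lay between 119 and 156 CPM with at most 0.135 CPM of Y-linked genes, and in 16 of 17 libraries labelled male it was at most 0.253 CPM with 114 to 131 CPM of Y-linked genes. The library labelled male nicotine replicate 21 went against its label, with 215 CPM of Xist and 0.0465 CPM of Y-linked genes. It was kept in its labelled group, and some results are also given without it. Markers of frontal cortex were present in every group, with Tbr1, a transcription factor of deep-layer glutamatergic neurons, at 150 to 213 CPM in female air and 138 to 189 CPM in male air libraries.

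The genes lie on separate chromosomes or far apart on one (mm9, with GENCODE M1 annotation). Syt1 occupies chr10:107934706-108448038 on the minus strand, Syt2 chr1:136605877-136649726 on the plus strand, Syt3 chr7:51639472-51655557 (plus), Syt6 chr3:103379154-103449490 (plus) and Syt7 chr19:10463580-10527671 (plus). Syt5 lies at chr7:4491370-4498169 (minus), Syt9 at chr7:114514242-114692170 (plus), Syt10 at chr15:89612824-89672291 (minus) and Syt11 at chr3:88548622-88636219 (minus). A gene on the opposite strand overlaps Syt3 (1700008O03Rik), Syt4 (Gm16871), Syt6 (the pseudogene Atg4a-ps), Syt7 (Gm17289) and Syt11 (the pseudogene 5830417I10Rik), and because the strand setting of the counting is not given in the sources used here, reads of such partners cannot be told apart from those of the member. Of the windows of 50 bases, the length of the reads, 5.69% in the Syt6 transcripts and 2.23% in those of Syt11 also occur in transcripts of other genes, so that their counts are less certain than those of the other 8 members, which share at most 0.0146%.

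The proximal promoters of Syt1, Syt2, Syt3 and Syt6, the members with an entry on which the comparisons below turn, are shown for the sequence that lies next to their starts. Each run covers the 250 bases before the RefSeq start nearest the annotated gene start (GRCm38.p6 table, matched without gaps to mm9), read 5′ to 3′ on the strand of the gene, and capitals mark the Sp-family box GGGCGG on either strand.
Syt1, chr10:108448032-108448281, minus strand: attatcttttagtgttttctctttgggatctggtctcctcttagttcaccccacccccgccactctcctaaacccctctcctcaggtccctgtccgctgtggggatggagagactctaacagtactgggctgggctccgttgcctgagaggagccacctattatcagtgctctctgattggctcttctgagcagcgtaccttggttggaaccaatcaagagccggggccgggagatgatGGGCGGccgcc
Syt2, chr1:136605627-136605876, plus strand: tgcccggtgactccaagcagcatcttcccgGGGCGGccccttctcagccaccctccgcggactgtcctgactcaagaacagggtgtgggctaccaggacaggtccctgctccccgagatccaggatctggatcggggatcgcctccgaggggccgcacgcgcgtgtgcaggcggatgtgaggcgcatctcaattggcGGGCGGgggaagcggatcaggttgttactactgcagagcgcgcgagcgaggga
Syt3, chr7:51639246-51639495, plus strand: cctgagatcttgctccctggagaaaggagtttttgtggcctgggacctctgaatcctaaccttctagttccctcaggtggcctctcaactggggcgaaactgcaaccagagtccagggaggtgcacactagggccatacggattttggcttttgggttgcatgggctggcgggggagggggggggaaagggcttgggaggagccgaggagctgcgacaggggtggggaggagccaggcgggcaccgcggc
Syt6, chr3:103378918-103379167, plus strand: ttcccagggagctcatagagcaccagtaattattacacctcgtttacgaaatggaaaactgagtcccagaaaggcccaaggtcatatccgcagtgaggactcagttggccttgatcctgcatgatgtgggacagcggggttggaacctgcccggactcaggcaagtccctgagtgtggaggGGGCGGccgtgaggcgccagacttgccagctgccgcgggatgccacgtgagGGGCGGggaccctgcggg

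The Sp box occurred 1 time before Syt1, 2 times before Syt2 and Syt6 and not before Syt3, against 32.7% of all 32851 promoters with at least 1 box on either strand. Neither the cyclic AMP response element TGACGTCA (1.55% of promoters) nor its core TGACG on either strand (17.8%) was found in these 4 windows. The Syt2 window held 22 CG dinucleotides and 66.4% G and C, the Syt6 window 13 and 60.4%, and those of Syt1 and Syt3 8 each with 56.4% and 62.4%, above medians of 6 and 52.4% over all promoters. The table held 7 of the 10 members and no entry was used for Syt4, Syt5 and Syt7.

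In air-exposed offspring the family spanned a wide range of levels, and Syt1 and Syt11 led in both sexes. Per kilobase of exon, Syt1, the fast calcium sensor of synchronous release in forebrain neurons, stood at 238 ± 25.5 normalized CPM per kb in females and 225 ± 15.8 in males (mean ± SD, n = 6 each). Syt11, which does not bind calcium and is known to restrain endocytosis, stood at 224 ± 5.84 and 239 ± 7.75. The ranges of Syt1 and Syt11 overlapped in either sex, so their order is not resolved.

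Syt5, a calcium-binding member, followed at 104 ± 6.24 CPM per kb in females and 104 ± 4.57 in males, ahead of Syt4 (73.7 ± 3.72 and 67.99 ± 3.75), a member found on vesicles that carry peptides and BDNF, and Syt7 (49.7 ± 1.94 and 53.8 ± 2.60), the slow, high-affinity sensor of asynchronous release and facilitation. Syt3 came next at 15.7 ± 0.822 and 16.1 ± 0.873 CPM per kb. From Syt11 or Syt1 down to Syt3 no range touched that of the next gene. Syt6, Syt9, Syt2 and Syt10 formed the low end at 9.28 ± 2.999, 4.66 ± 0.909, 3.57 ± 0.746 and 3.05 ± 0.883 CPM per kb in females and 10.9 ± 1.87, 5.68 ± 0.277, 3.46 ± 0.77 and 4.18 ± 0.983 in males. Neighbours among these 4 overlapped, except Syt6 and Syt9 in males.

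**Figure D1:**
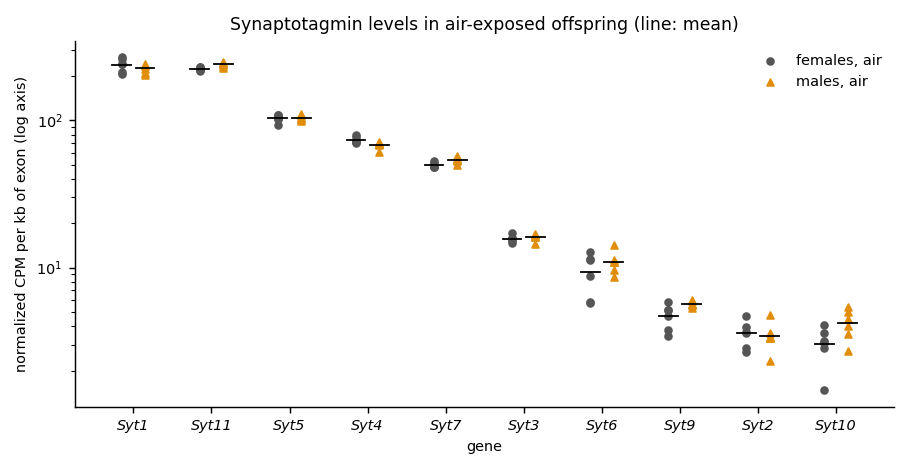
Level of each synaptotagmin in the 6 female and 6 male air libraries, as normalized CPM per kilobase of exon on a log axis, with a line at each mean. Syt1 and Syt11 lie above 200 in every library, and Syt2 and Syt10 lie below 6.

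The comparison of each aerosol with air asks which members differed in the cortex of exposed offspring. Syt1 fell with the aerosol without nicotine by 23.6% in females and 25.2% in males, and Syt7 by 27.1% and 32.4%. Syt6 rose by 56.3% in males and Syt3 by 13.8% in females, both without nicotine. At an adjusted p below 0.01 (edgeR, quasi-likelihood, adjusted over all genes tested), 3 of 10 members were called in females without nicotine and 3 of 10 in males without nicotine, beside 12.1% and 13.6% of all genes tested. No member was called with nicotine in females (background 4.29%) or in males (0%, that is 0 of 15293 genes). At an unadjusted p below 0.05, there were 5 and 7 members in females (with and without nicotine) and 5 and 5 in males, against 28.1%, 36.4%, 14.4% and 36% of all genes. DESeq2 called 2 members in females with nicotine (beside 8.7% of all genes) and 1 in males with nicotine (1.04%).

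The median log2 fold change of the 10 members was near 0 in every comparison with air (-0.023 and 0.033 in females with and without nicotine, -0.020 and -0.0078 in males), as was that of all genes (0.0041, 0.0092, 0.0065 and 0.016). Positive and negative values numbered 5 and 5 in females with nicotine, 6 and 4 in females without, 4 and 6 in males with and 5 and 5 in males without nicotine, and the members are described singly. Both aerosol groups of a sex were compared with the same air libraries, so the paired values below are not independent.

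**Figure D2:**
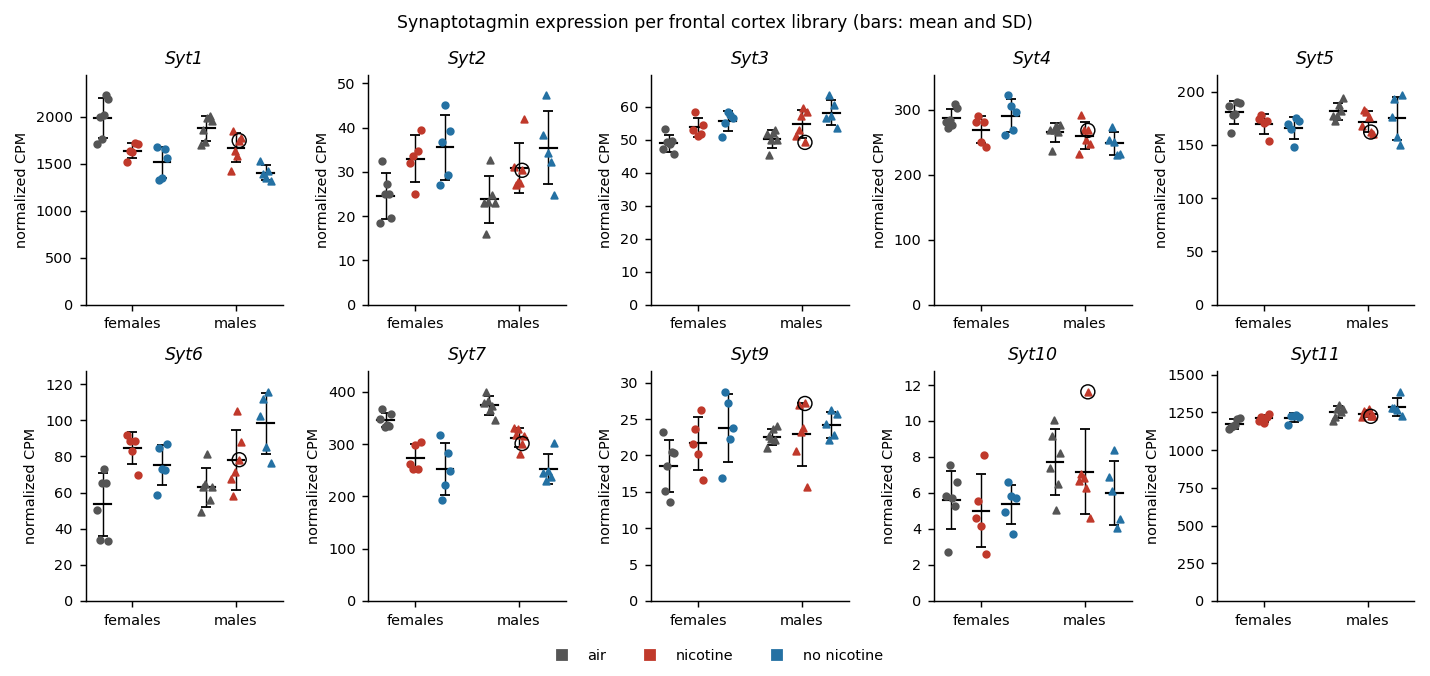
Normalized CPM of the 10 synaptotagmins in each library (circles, females, and triangles, males, with gray for air, red for nicotine and blue for no nicotine), with the mean and SD of each group and a ring around the library labelled male nicotine replicate 21. Syt7 lies below the air libraries in every exposed library of both sexes, while Syt11 differs little between groups.

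Among the fast sensors of synaptic vesicles, Syt1 was lower in every no nicotine library than in any air library. In female air it ran from 1709 to 2228 (median 2005, n = 6) CPM, with nicotine the 5 libraries had 1515, 1640.3, 1621, 1718 and 1706, and without nicotine 1679, 1322, 1351, 1658 and 1563. In male air it ran from 1704 to 2008 (median 1909.6, n = 6), with nicotine from 1419.7 to 1853 (median 1691, n = 6), and without nicotine the values were 1525, 1395, 1351, 1427 and 1318. The no nicotine groups did not overlap with air in either sex (a separation downward seen for 6.27% of genes in females and 6.94% in males), whereas 1 of 5 female and 3 of 6 male nicotine libraries lay within the air range. The log2 fold change without nicotine was -0.39 ± 0.080 (adjusted p = 0.00279) in females and -0.42 ± 0.065 (adjusted p = 0.000198) in males (± SE, edgeR, 5 libraries against 6). With nicotine it was -0.27 ± 0.080 (adjusted p = 0.0332) in females and -0.17 ± 0.062 (adjusted p = 0.212) in males, short of the threshold. The female call was lost without no nicotine replicate 2 (adjusted p = 0.0108) or replicate 3 (adjusted p = 0.011), and the male call held in all 17 fits that left out 1 library (highest adjusted p = 0.000845, edgeR).

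Syt2, the fast sensor of brainstem neurons and of parvalbumin interneurons in cortex, went the other way from Syt1. Female air libraries ran from 18.4 to 32.4 (median 24.96, n = 6) CPM, those with nicotine had 32.1, 33.6, 25.03, 34.7 and 39.6 and those without nicotine 27.1, 36.7, 45.2, 29.3 and 39.3. Male libraries ran from 16.04 to 32.6 (median 23.1, n = 6) in air and from 27.1 to 41.99 (median 29.01, n = 6) with nicotine, with 38.4, 47.3, 34.2, 32.2 and 24.8 without nicotine. Exposed libraries reached higher than air, yet each exposed group overlapped with its air group. The log2 fold change was 0.42 ± 0.15 (adjusted p = 0.0753) and 0.53 ± 0.15 (adjusted p = 0.017) in females with and without nicotine, and 0.39 ± 0.16 (adjusted p = 0.255) and 0.58 ± 0.16 (adjusted p = 0.0133) in males (edgeR), so that no comparison passed 0.01 in the main fits. In males without nicotine, Syt2 was among the further members that DESeq2 called. Leaving out 1 library brought Syt2 past the threshold in 2 of 16 fits in females without nicotine (without air replicate 2 or no nicotine replicate 1, adjusted p = 0.0085 and 0.00595) and in 3 of 17 in males without nicotine (without air replicate 37, nicotine replicate 22 or no nicotine replicate 7, adjusted p from 0.00354 to 0.00789, edgeR).

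Because Syt1 and Syt2 serve the same step in different neurons, their counts were also set against each other within a library, which needs no normalization. Per 100 Syt1 counts there were 0.896 to 1.63 Syt2 counts in female air, 1.54 to 2.32 with nicotine and 1.61 to 3.34 without. In males the ratio was 0.861 to 1.64 in air, 1.46 to 2.37 with nicotine and 1.89 to 3.39 without. The no nicotine group of males lay wholly above air, and the other exposed groups overlapped with air at the edge. Since Syt1 and Syt2 changed in opposite directions, this ratio restates those changes and is no separate result.

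Syt9, the third fast sensor, known from limbic and striatal neurons, was not called in any comparison. Female libraries ran from 13.6 to 23.2 (median 19.5, n = 6) CPM in air, had 21.6, 23.7, 20.2, 26.2 and 16.6 with nicotine and 16.9, 28.7, 27.1, 22.3 and 23.8 without nicotine. Its log2 fold change in females was 0.22 ± 0.15 (adjusted p = 0.358) with and 0.36 ± 0.15 (adjusted p = 0.0884) without nicotine (edgeR), with overlapping groups. In males, where air ran from 20.99 to 24.03 (median 22.4, n = 6) CPM, it was 0.017 ± 0.10 (adjusted p = 0.965) and 0.10 ± 0.10 (adjusted p = 0.513), and the 95% interval without nicotine was -0.11 to 0.31. Without the library labelled male nicotine replicate 21, the male value with nicotine was -0.040.

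Syt7, the slow sensor, gave the clearest separation of the family. In female air it ran from 333 to 367 (median 343, n = 6) CPM. The 5 female nicotine libraries had 262, 252, 299, 252 and 304 and the 5 without nicotine 318, 194, 221, 282 and 248. In males it ran from 346 to 400.2 (median 376, n = 6) in air and from 281 to 332 (median 317, n = 6) with nicotine, and had 245, 230.4, 249, 238 and 303 without nicotine. All 21 exposed libraries were below every air library of their sex. Such a complete separation downward was seen for 3.6%, 6.27%, 1.24% and 6.94% of genes in the 4 comparisons (females with and without nicotine, males with and without).

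The log2 fold change of Syt7 without nicotine was -0.46 ± 0.10 (adjusted p = 0.00335) in females and -0.57 ± 0.062 (adjusted p = 2.14e-05) in males. With nicotine it was -0.34 ± 0.10 (adjusted p = 0.0299) in females and -0.26 ± 0.059 (adjusted p = 0.0615) in males, not past the threshold (edgeR), and -0.25 in males without the library labelled replicate 21 (adjusted p = 0.115). The female nicotine change passed with DESeq2 (adjusted p = 0.00981), with only the 2 groups in the fit (adjusted p = 0.0033) and without no nicotine replicate 1 (adjusted p = 0.0099), and the male one with DESeq2 (adjusted p = 0.00245). Leaving out no nicotine replicate 3 ended the female call without nicotine (adjusted p = 0.013), and the male call held in all 17 such fits (highest adjusted p = 0.000102).

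Markers of cortical glutamatergic neurons had lower summed levels in the exposed groups. Their summed level over 15 genes was 10129.5 to 13245 CPM in female air, 6542 to 10059.8 with nicotine and 4912 to 9519 without, and 9102 to 10598, 7618 to 8628 and 4801 to 8147 in males. Of the 15 genes, 11 were lower and 1 higher (Foxp2, named after its value was seen) in each no nicotine comparison, and in females with nicotine 1 was lower and Foxp2 higher. Female no nicotine replicate 1 and male no nicotine replicate 7 had the highest Syt7 (318 and 303 CPM) and the highest marker sum (9519 and 8147 CPM) of their groups, and female no nicotine replicate 2 the lowest of both (194 and 4912 CPM). For Syt1 the library order differed in males, where no nicotine replicate 7 had the lowest Syt1 of its group (1318 CPM). In bulk tissue, fewer cells of a type and less RNA per cell cannot be told apart, and the part of these markers in the change of Syt1 and Syt7 was not tested.

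Syt3, Syt6 and Syt10 share N-terminal cysteines that link them as dimers, and Syt3 is known for the internalization of AMPA receptors. Syt3 ran from 45.6 to 53.2 (median 48.96, n = 6) CPM in female air, and the libraries had 52.8, 58.4, 51.2, 51.8 and 54.5 with and 50.95, 55.2, 58.4, 57.5 and 56.5 without nicotine. In males it ran from 45.2 to 52.9 (median 50.8, n = 6) in air and from 49.2 to 59.7 (median 55.1, n = 6) with nicotine, with 56.7, 63.5, 57.1, 60.4 and 53.6 without nicotine. Only the male no nicotine group was wholly above air, which 5.48% of genes were in that comparison. The log2 fold change was 0.13 ± 0.048 (adjusted p = 0.074) and 0.19 ± 0.048 (adjusted p = 0.00944) in females, 0.12 ± 0.054 (adjusted p = 0.298) and 0.21 ± 0.057 (adjusted p = 0.0102) in males, with and without nicotine (edgeR). Both no nicotine values lay close to the threshold. The female call held in 4 of 16 fits without 1 library, in which the adjusted p ran from 0.00309 to 0.0308 (highest without no nicotine replicate 3), and it was lost with only the 2 groups in the fit (adjusted p = 0.014). The male value passed in 3 of 17 such fits (without nicotine replicate 19 or 21 or no nicotine replicate 7) and with DESeq2, upper quartile scaling, the stricter filter and the 2 groups alone (adjusted p from 0.00568 to 0.00952).

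Syt6, known outside the brain from the acrosome reaction of sperm, had the largest positive change of the family in the female nicotine and the male no nicotine comparison. In female air its 6 libraries were spread over 33.2, 33.5, 50.4, 65.4, 65.4 and 73.3 CPM. The nicotine libraries had 92.1, 88.8, 83.2, 88.5 and 69.8 and those without nicotine 58.9, 84.5, 73.1, 72.8 and 86.7. Males ran from 49.5 to 81.6 (median 63.1, n = 6) in air and from 58.3 to 105 (median 74.8, n = 6) with nicotine, and had 102, 112, 85, 116 and 76.6 without nicotine. Every exposed group overlapped with its air group. The log2 fold change of 0.64 ± 0.14 (adjusted p = 0.00285) in males without nicotine was called and held in all 17 fits without 1 library (highest adjusted p = 0.00975, edgeR). It was 0.31 ± 0.14 (adjusted p = 0.297) in males with nicotine, 0.66 ± 0.18 (adjusted p = 0.0235) in females with and 0.49 ± 0.18 (adjusted p = 0.0543) in females without nicotine, and the first female value passed with DESeq2 (adjusted p = 0.00426).

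Markers of striatal projection neurons were low or high in several of the libraries at the ends of the Syt6 range. Their sum over 9 genes was 1089 and 1260.0 CPM in female air replicates 2 and 6, the 2 libraries with the lowest Syt6, and 2694 CPM in replicate 4, the one with the most. It was 1089 to 2694 CPM in female air, 2406 to 3325 with nicotine and 2096 to 2636 without, and 1519 to 2678, 1690.2 to 3418 and 1799 to 4936 in males. In males without nicotine the highest sum (4936 CPM) was that of replicate 5, which also had the most Syt6 (116 CPM). The order was not shared in females with nicotine, where replicate 3 had the highest sum (3325 CPM) and the second lowest Syt6 (83.2 CPM). Of the 9 genes tested, 2 were higher in the female nicotine and 2 in the male no nicotine group, and none in the female no nicotine or male nicotine group (6 and 0 at an unadjusted p below 0.05, edgeR). Their part in the change of Syt6 was not tested.

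Syt10, known from the activity-dependent secretion of IGF-1 in olfactory bulb neurons, had the lowest CPM of the family and the widest spread. Female libraries ran from 2.72 to 7.56 (median 5.78, n = 6) CPM in air, had 4.61, 5.56, 4.18, 8.11 and 2.63 with nicotine and 4.93, 6.62, 5.85, 3.72 and 5.70 without. Male libraries ran from 5.03 to 10.03 (median 7.80, n = 6) in air and from 4.58 to 11.6 (median 6.75, n = 6) with nicotine, and had 6.88, 6.12, 8.41, 4.05 and 4.54 without. All groups overlapped and no comparison was called. The log2 fold change in males with nicotine was -0.11, and -0.30 without the library labelled replicate 21. The 95% intervals of the log2 fold change were -0.70 to 0.36 and -0.59 to 0.45 in females and -0.55 to 0.33 and -0.82 to 0.11 in males, with and without nicotine. Changes within these bounds remain compatible with the data.

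The remaining members did not pass the test in any comparison. Syt11 ran from 1138 to 1211 (median 1164, n = 6) CPM in female air and from 1191 to 1302 (median 1264, n = 6) in male air, and its log2 fold changes were 0.045 and 0.050 in females and -0.013 and 0.040 in males (adjusted p from 0.338 to 0.916, edgeR). The upper ends of their 95% intervals reached 0.13 at most. Syt4 ran from 272 to 308 (median 283, n = 6) CPM in female and from 236 to 276 (median 269, n = 6) in male air, with changes between -0.10 and 0.016. Syt5 ran from 161 to 191 (median 183, n = 6) CPM in female and from 172 to 194 (median 179.7, n = 6) in male air, with changes between -0.12 and -0.056, and its lowest adjusted p was 0.0971 (females without nicotine, edgeR). For Syt4 and Syt5 every exposed group overlapped with air.

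**Figure D3:**
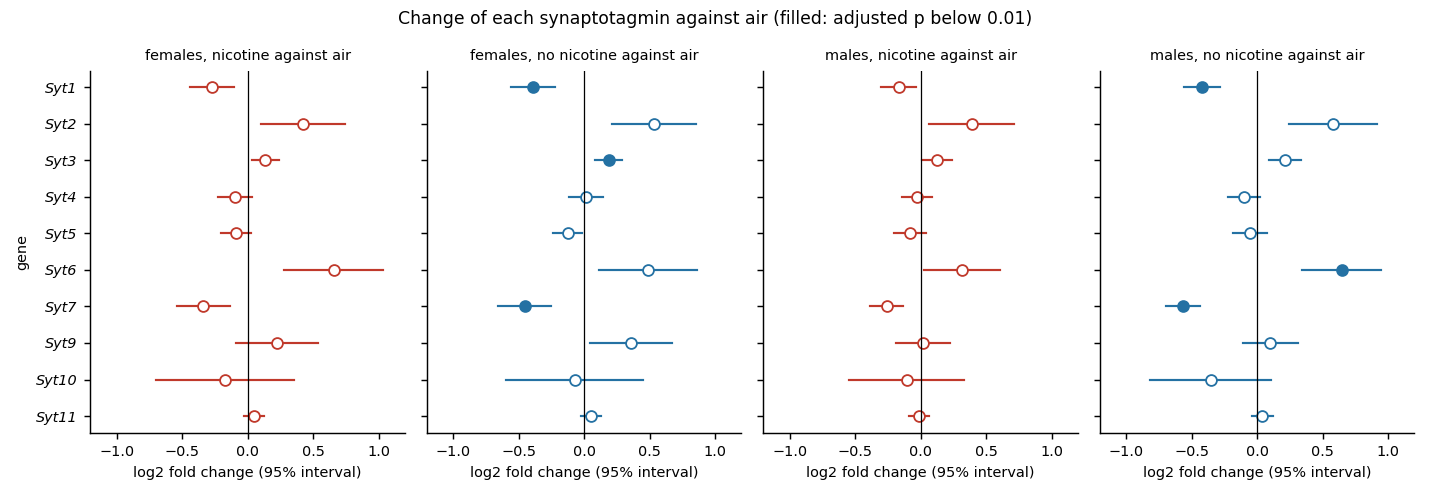
Log2 fold change against air with its 95% interval for each synaptotagmin, in 1 panel per comparison, filled where the adjusted p (edgeR) was below 0.01. Syt1 and Syt7 lie left of 0 and Syt2, Syt3 and Syt6 right of 0 in all 4 panels, and the intervals of Syt10 are the widest.

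The spread between libraries of a group set how small a change could be seen. Pooled over the 6 groups, the SD of log2 CPM was 0.041 for Syt11, a value below which only 0.547% of 13720 genes lay, and 0.087 for Syt3, 0.10 for Syt5, 0.10 for Syt4, 0.13 for Syt1 and 0.14 for Syt7. It was 0.24 for Syt9, 0.29 for Syt2, 0.31 for Syt6 and 0.45 for Syt10, the last above 97.5% of genes. A change of Syt3 of 0.19 could thus be called while one of Syt2 of 0.53 was not.

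The 2 aerosols were also compared directly. They came from different cartridges and, by the study's methods, differed in particle level, so that the comparison is not of nicotine alone. In females no member was called, beside 0% of genes (0 of 15158 with edgeR and with DESeq2), and no member had an unadjusted p below 0.05, against 8.35% of genes. The largest female differences, nicotine against no nicotine, were 0.17 ± 0.19 (adjusted p = 0.825) for Syt6 and -0.13 ± 0.15 (adjusted p = 0.83) for Syt9 (edgeR, n = 5 each). In males no member was called with edgeR, beside 0.248% of genes, and 3 had an unadjusted p below 0.05, against 20.1%. These were Syt7 at 0.30 ± 0.062 (adjusted p = 0.0166), Syt1 at 0.25 ± 0.065 (adjusted p = 0.0401) and Syt6 at -0.33 ± 0.14 (adjusted p = 0.198), so that the males with nicotine lay between air and no nicotine for each. DESeq2, which called 2.98% of genes, called Syt1 (adjusted p = 0.00623) and Syt7 (adjusted p = 0.000248). Syt7 also passed with edgeR without nicotine replicate 19 (adjusted p = 0.00491) or no nicotine replicate 7 (adjusted p = 0.000776), and without the library labelled replicate 21 the difference was 0.32 (adjusted p = 0.0288).

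Whether a change against air differed between females and males was tested on 15105 genes in 1 fit of all 6 groups. No member was called for either aerosol, beside 0% of genes, and none had an unadjusted p below 0.05, against 6.47% and 4.91% of genes. For Syt6 the difference (females minus males) was 0.35 ± 0.24 (adjusted p = 0.844) with and -0.15 ± 0.24 (adjusted p = 0.972) without nicotine, and for Syt7 it was -0.069 ± 0.11 (adjusted p = 0.962) and 0.12 ± 0.12 (adjusted p = 0.962) (log2, edgeR). The 95% intervals for Syt7 were -0.30 to 0.17 and -0.12 to 0.36, so sex differences within these bounds remain compatible with the data. DESeq2 called no member for either aerosol, beside 0.00662% and 0% of genes. With edgeR none was called in any of the 33 fits that left out 1 library, that labelled male nicotine replicate 21 included.

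Syt6 and Syt7 were also set against each other within a library, a pair chosen after their opposite changes were known, so that the ratio restates those changes. Per 100 Syt7 counts there were 9.14 to 21.7 Syt6 counts in female air, 22.96 to 35.2 with nicotine and 18.5 to 43.6 without. In males there were 13.1 to 22.3, 18.3 to 37.4 and 25.3 to 48.7. Syt2 counts per 100 Syt7 counts were 5.27 to 8.84 in female air and 8.52 to 20.4 in females without nicotine, and 4.01 to 8.90 and 8.20 to 20.5 in males, with overlap at the edge in each. This ratio too restates opposite changes.

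Markers of inhibitory neurons did not all go one way. The summed level of the 9 genes listed for GABAergic interneurons, among them Gad1 and Gad2 for GABA synthesis and Slc32a1 for its vesicular transport, was 934 to 1221 CPM in female air, 1198 to 1489 with nicotine and 1239 to 1668 without, and 1034 to 1277, 1208 to 1441 and 1349 to 1938 in males. Gad1, Gad2 and Slc32a1 held most of it (means of 270.7, 293.5 and 192 CPM in female air, of a mean sum of 1108 CPM). The sum therefore mainly reflects genes of GABA synthesis and transport. In females without nicotine 4 of the 9 genes were higher and 2 lower (Vip and Npy), in males without nicotine 3 higher and 1 lower (Vip), in females with nicotine 2 higher and 1 lower (Vip), and in males with nicotine none was called (5 at an unadjusted p below 0.05, edgeR). Over the list 5 values were positive and 4 negative in either female comparison, 7 and 2 in males with nicotine and 6 and 3 in males without. Pvalb, the parvalbumin gene of the list, was called in no comparison with air. Syt2 itself passed in no comparison of the main edgeR fits. Vip and Npy, both neuropeptides, were named after their values were seen. The part of these markers in the Syt2 values was not tested.

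**Figure D4:**
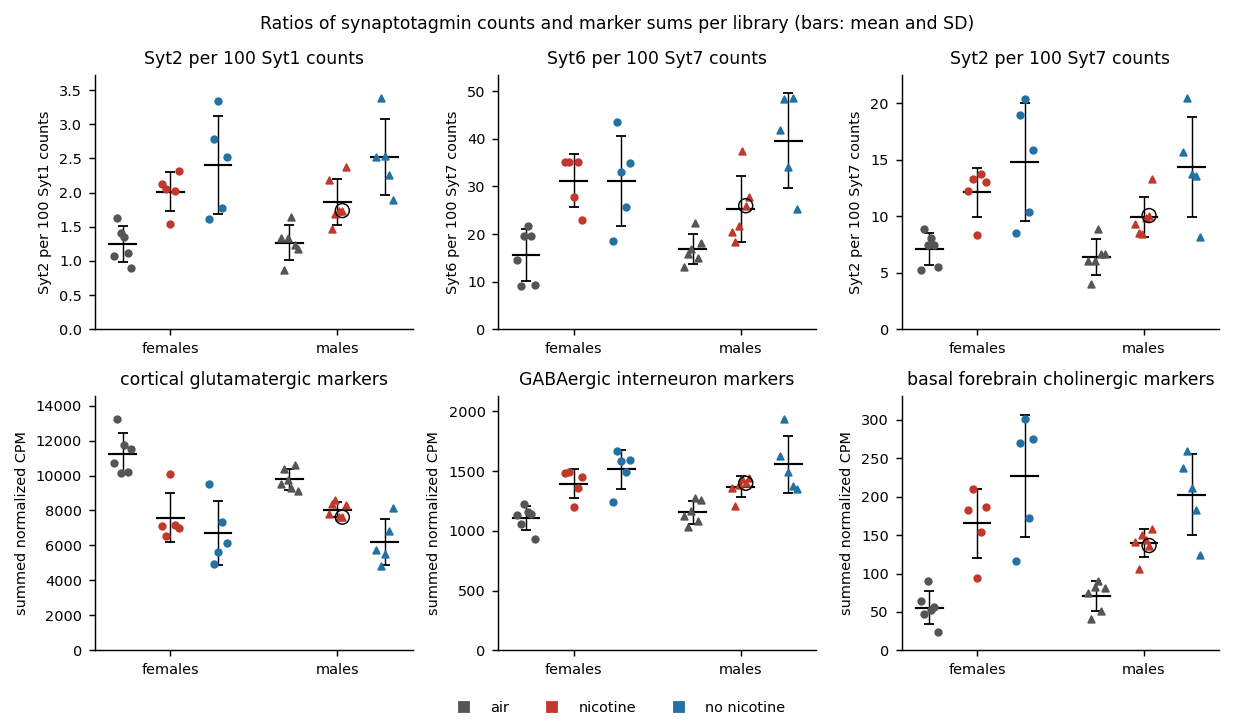
Ratios of synaptotagmin counts (upper row) and summed marker levels in normalized CPM (lower row) in each library, with the mean and SD of each group and a ring around the library labelled male nicotine replicate 21. The means of the exposed groups lie above air for the 3 ratios and for the GABAergic and cholinergic markers and below air for the cortical glutamatergic markers.

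Among the other cell types the tissue could hold, 8 of 8 genes of basal forebrain cholinergic neurons were higher in females with nicotine and in both no nicotine groups, with a summed level of 23.4 to 90.1 CPM in female air, 94.2 to 210.4 with and 116 to 302 without nicotine, and 41.2 to 90.4, 105 to 157 and 124 to 259 in males. Oligodendrocyte genes were higher in 8, 7 and 8 of 8 in the same comparisons, from 8328 to 10068 CPM in female air to 11181 to 16858 without nicotine and from 9619 to 11846 in male air to 14099 to 24126. In males with nicotine none of either list was called (edgeR), while 8 cholinergic and 0 oligodendrocyte genes had an unadjusted p below 0.05. None of 6 astrocyte or 6 microglia genes was called in any comparison with air, with at most 2 at an unadjusted p below 0.05. Of 6 thalamic genes, 2 were higher in either female comparison and 2 higher and 1 lower in males without nicotine, no olfactory bulb gene was called (at most 2 at an unadjusted p below 0.05), and of 6 endothelial and choroid plexus genes Ttr (transthyretin, of the choroid plexus) was higher in males without nicotine. That call came from replicate 7, at 838 CPM against 1.53 to 8.25 CPM in the other 4 libraries and 0.255 to 19.4 CPM in air, and without it the adjusted p was 0.923 (edgeR). Without the same library 5 rather than 3 synaptotagmins were called in that comparison. The share of all genes called in that fit is not given here, so the count is not read as particular to the members. No marker present in the tables was at 0 in every library. The part of these lists in the changes of the synaptotagmins was not tested.

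For each member the 2 genes with the most similar pattern were sought among 13719 genes, by Pearson's r of log2 CPM over the 33 libraries after the mean of each group was removed. Libraries of a sex shared a sequencing run, and r is given as a description. Syt7 was closest to Bsn, an active zone scaffold (r = 0.935), and Rapgefl1 (0.905). Syt1 was closest to the kinase gene Pak1 (r = 0.932) and to Slc24a2, a sodium-calcium-potassium exchanger (0.925), and Syt4 to Necap1, a protein of clathrin-coated vesicles (0.887), and Fyttd1 (0.884).

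Syt6 ranked Foxp2, a transcription factor of deep cortical layers and striatum, first (r = 0.884) and Slc35d3 second (0.86), and Syt2 ranked Vamp1, a vesicle SNARE, first (0.867) and Ogdh second (0.8). For Syt11 the closest gene was Trf, transferrin (r = 0.813), followed by Nkain1 (0.808), for Syt9 Oxtr, the oxytocin receptor (0.794), followed by Chl1 (0.794), and for Syt10 Rasa1 (0.777) followed by Scn3a (0.744). Syt5 with Gda (0.75) and Ptprn2 (0.726) and Syt3 with Ccdc92 (0.723) and Arl2 (0.683) had the weakest partners. Among the members themselves, the highest r was 0.625 (Syt2 and Syt3) and the lowest -0.674 (Syt4 and Syt7).

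The other genes of vesicle release that were called were mainly lower, in each of the 3 comparisons with calls. Of 55 genes in 4 lists (SNAREs and their chaperones, priming and active zone, other C2-domain vesicle proteins, vesicle proteins), 52 were tested. In females with nicotine 10 fell and 0 rose (19.2% called), beside 2.32% lower and 1.98% higher of all genes. In females without nicotine 23 fell and 3 rose (50%), beside 7.03% and 5.03%, and in males without nicotine 26 fell and 3 rose (55.8%), beside 7.47% and 6.15%. In males with nicotine none was called with edgeR, 27 of 52 had an unadjusted p below 0.05 (14.4% of all genes) and DESeq2 called 6 (1.04%). The median log2 fold change of the 52 genes was -0.20 and -0.21 in females with and without nicotine and -0.11 and -0.26 in males, against medians of all genes no farther from 0 than 0.016.

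Of the 13 SNAREs and chaperones, 5 fell in females and 7 fell in males without nicotine. Stx1a, a plasma membrane SNARE, changed by -0.87 ± 0.17 (adjusted p = 0.00179) in females and -0.97 ± 0.14 (adjusted p = 9.95e-05) in males (log2, edgeR). The 1 gene of the list that rose was Vamp1, in males without nicotine, by 0.51 ± 0.12 (adjusted p = 0.00405), named after its value was seen. It is also the gene closest to Syt2.

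The priming and active zone list had the most calls, 10 lower and 1 higher of 15 in females and 11 lower in males without nicotine. Rims1, which tethers calcium channels to vesicles, changed by -0.79 ± 0.15 (adjusted p = 0.00174) and Rimbp2, its binding partner, by -0.50 ± 0.090 (adjusted p = 0.00138) in females without nicotine, and Bsn by -0.75 ± 0.082 (adjusted p = 2.14e-05) and Erc2 by -0.50 ± 0.053 (adjusted p = 2.14e-05) in males. With nicotine, 3 of the list fell in females, led by Cadps2, a priming factor of dense-core vesicles (-0.73 ± 0.16 (adjusted p = 0.00697)), and Rimbp2 (-0.42 ± 0.090 (adjusted p = 0.00702)). The gene that rose in females without nicotine was Unc13c, a Munc13 priming factor best known from the cerebellum, by 0.67 ± 0.15 (adjusted p = 0.00416), again named after its value was seen.

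Relatives of the family outside the 10 members were in the list of other C2-domain proteins, of which 12 of 15 were tested. Syt16 changed by -0.41 ± 0.069 (adjusted p = 0.00103) in females and -0.46 ± 0.057 (adjusted p = 3.17e-05) in males without nicotine, Syt13 by -0.39 ± 0.059 (adjusted p = 0.000151) in males, Sytl2 by -0.56 ± 0.11 (adjusted p = 0.002) in females, and Syt17 and Doc2a by -0.46 ± 0.079 (adjusted p = 0.00215) and -0.47 ± 0.082 (adjusted p = 0.00234) in females with nicotine. Doc2b, a soluble high-affinity calcium sensor, rose by 0.63 ± 0.14 (adjusted p = 0.00504) in females and 0.57 ± 0.14 (adjusted p = 0.00472) in males without nicotine, Sytl4 rose by 1.33 ± 0.28 (adjusted p = 0.00348) in females and Sytl5 by 0.67 ± 0.15 (adjusted p = 0.00266) in males, all 3 named after their values were seen. In total 5 of 12 fell and 2 rose in females without nicotine, 4 fell and 2 rose in males without nicotine, and 4 fell in females with nicotine.

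Of the 12 vesicle proteins, 3 fell in either female comparison and 4 in males without nicotine. Syn1, which ties vesicles into a reserve pool, changed by -0.33 ± 0.071 (adjusted p = 0.00697) in females with nicotine, -0.42 ± 0.071 (adjusted p = 0.00107) in females without and -0.44 ± 0.050 (adjusted p = 2.14e-05) in males without nicotine. Sv2b, a vesicle protein that binds synaptotagmin, changed by -0.83 ± 0.15 (adjusted p = 0.00152) in females and -1.02 ± 0.12 (adjusted p = 2.35e-05) in males without nicotine, and Syngr1 by -0.21 ± 0.047 (adjusted p = 0.00862) in females with nicotine. The counts of this and the other 3 lists in females depended on single libraries. With nicotine 3 to 6 genes were called without any 1 of air replicates 2, 4, 5 and 6, nicotine replicates 1, 2, 5 and 6 and no nicotine replicate 5, and without nicotine 11 to 17 without air replicate 5 or 6 or no nicotine replicate 2, 3 or 5. The share of all genes called in females fell in such fits too. With nicotine it was 2.34%, 2.88%, 2.33% and 1.88% without air replicate 2, 4, 5 or 6, against 4.29% with all libraries. Without nicotine it was 8.16% without air replicate 5, against 12.1%. In males without nicotine 26 to 32 release genes were called in all 17 fits that left out 1 library. The cortical glutamatergic markers given above had lower sums in the same groups, and their part was not tested.

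**Figure D5:**
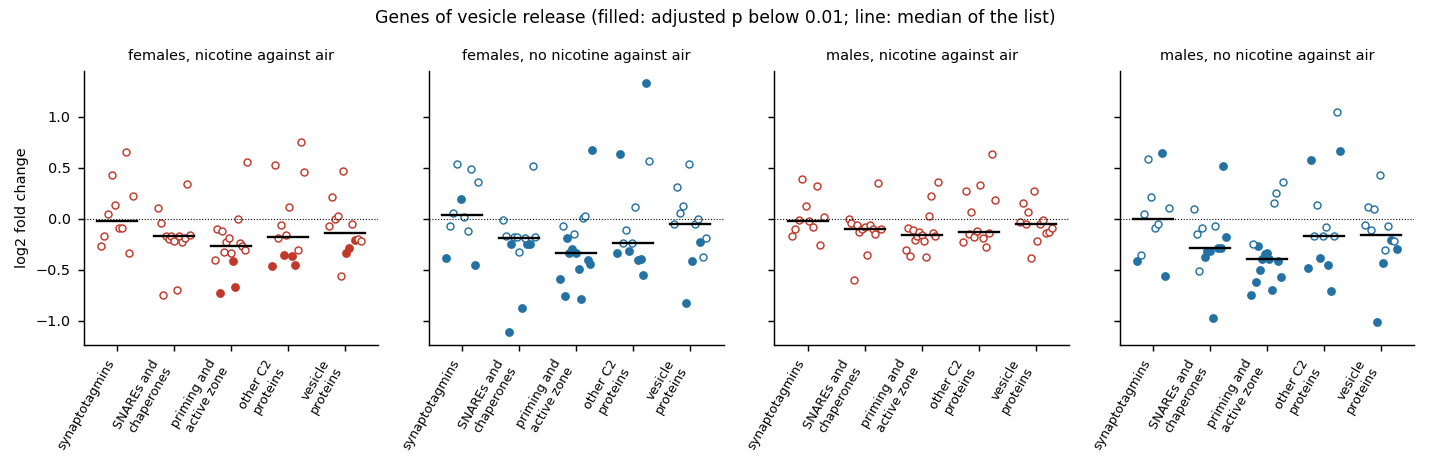
Log2 fold change against air of each synaptotagmin and of the 52 tested genes of the 4 release lists, in 1 panel per comparison, filled where the adjusted p (edgeR) was below 0.01, with a line at the median of each list. The medians of the 4 release lists lie below 0 in every panel, and that of the synaptotagmins lies near 0.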

How the data were processed

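RNA-Seq read counts per gene were analysed for 33 frontal cortex samples. The deposited counts are whole numbers that the authors made from single reads of 50 cycles, which were aligned against the mm9 transcriptome in Bowtie1, had PCR duplicates removed in Samtools, and were assigned to genes in Htseq. Samples were grouped by sex and exposure as labelled. Of 34 count columns, 33 were matched to a sample and 1 was not used here, and the authors' normalized tables were not used. Genes with a repeated symbol (4 per count file) were kept as separate rows.

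Genes with a CPM sum of at least 5 were scaled by TMM. The quasi-likelihood test was that of edgeR 4.0.16, run on each sex with its 3 groups and no covariate, and p-values were adjusted by Benjamini-Hochberg with a threshold of 0.01. The study's tool was DESeq2. Sex differences were tested as an interaction on all 6 groups. CPM uses TMM-scaled library sizes, and log2 CPM a prior count of 1. The members, gene lists and markers were chosen with earlier results of these data known. All 10 members are described. Of each release list the 2 genes with the smallest p past the threshold per comparison with air are named, and other named genes are marked as such. One gene that this rule selects is not reported here. The fits were tested on simulated data.

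Alternatives were DESeq2 1.42.0, DESeq2 size factors, upper quartile scaling, a stricter filter (1 CPM in 5 libraries) and none, fits of 2 groups, each sample left out, and a replicate block in females. Replicate pairs of a group differed beyond sampling noise (chi-square per degree of freedom 4.46 to 30.9 over 75 pairs). R 4.3.3, Python 3.11.15, pandas 2.3.3, numpy 2.4.6, scipy 1.17.1 and matplotlib 3.10.9 were used.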

Additional observations from a re-analysis of the deposited data

Results flagged for a closer look

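In 5 of 60 combinations of member and group, 1 library stood apart from the others by Dixon's criterion, a rate close to the 1 in 20 that chance gives. Syt2 in the male nicotine group reached 42.0 CPM in replicate 22, against 27.1 to 31 CPM in the other 5 libraries. Syt4 was lowest in male air replicate 31, at 236 CPM against 266 to 276 CPM. Syt7 was 303 CPM in male no nicotine replicate 7, against 230.4 to 249 CPM, and that library had the highest cortical glutamatergic marker sum of its group. Syt10 was 11.6 CPM in the library labelled male nicotine replicate 21, against 4.58 to 7.06 CPM, which is also the library whose sex-linked transcripts went against its label. Syt11 was 1164 CPM in female no nicotine replicate 1, against 1219.9 to 1232 CPM.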

How the results depend on the processing

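Across the alternatives, Syt1, Syt2, Syt3, Syt6 and Syt7 kept their direction against air in every fit. The number of synaptotagmins called in females with nicotine was 0 in the main analysis, 2 with DESeq2 and 1 with only the 2 groups in the fit. It was 1 instead of 0 in males with nicotine, 5 instead of 3 in males without nicotine (17.2% of all genes with this tool) and 2 instead of 0 in males between the aerosols, all with DESeq2. Leaving out 1 library at a time gave 0 to 1 synaptotagmins in females with nicotine (1 without no nicotine replicate 1), 0 to 4 in females without nicotine (0 without no nicotine replicate 3, 1 without replicate 2), 3 to 5 in males without nicotine (5 without no nicotine replicate 7) and 0 to 1 in males between the aerosols (1 without nicotine replicate 19 or no nicotine replicate 7). Release genes called in females with nicotine were 6 with upper quartile scaling and 17 with DESeq2 (10 in the main analysis), and in males with nicotine 6 with DESeq2. They ran from 3 to 15 in females with nicotine and from 11 to 29 in females without when 1 library was left out. The share of all genes called also moved between such fits. In females with nicotine it was 1.88% without air replicate 6 and 4.55% without air replicate 1. In females without nicotine it was 8.16% without air replicate 5 and 13.2% without air replicate 1. Shifts in these counts are therefore not read as particular to synaptotagmins or release genes. The cause of these shifts was not tested. Whether the replicate numbers of females pair the samples was not settled. Over 14 pairs of libraries with the same number, deviations from the group means correlated at -0.273 to 0.266. Over the 71 pairs with different numbers they correlated at -0.404 to 0.477. Of 16 libraries, 7 correlated best with their own number. With the replicate number as a block, 1 synaptotagmin (Syt1) was called in females without nicotine. Males share no numbers between groups. Over all genes, DESeq2 called 1319 instead of 651 in females with nicotine, 159 instead of 0 in males with nicotine and 456 instead of 38 between the aerosols in males, and the block 136 and 736 instead of 651 and 1829 in females. Upper quartile scaling moved the split in females with nicotine from 300 higher and 351 lower to 372 and 242, and without nicotine from 763 and 1066 to 886 and 911. With only the 2 groups in the fit, 17 genes were called in males with nicotine and 0 in males between the aerosols. Values near 0 that were not called changed sign in some fits. The ranges over fits without 1 library were -0.023 to 0.045 for Syt4 and -0.21 to 0.028 for Syt10 in females without nicotine, -0.063 to 0.0029 for Syt4, -0.040 to 0.11 for Syt9 and -0.30 to 0.0010 for Syt10 in males with nicotine, and, between the aerosols, -0.0039 to 0.074 for Syt5, -0.34 to 0.079 for Syt10 and -0.013 to 0.0060 for Syt11 in females and -0.075 to 0.019 for Syt5 and -0.14 to 0.0070 for Syt9 in males. For Syt11 between the aerosols in females the sign also changed with upper quartile scaling (0.00040). Counts per library were 61 to 250 for Syt10 and at least 22494 for Syt1 and Syt11, and the part of depth in the spread of Syt10 was not tested.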
